A study of Mus musculus with 2 samples.

Results

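A small set of blood cells carrying RNA for the proteases and the peroxidase of primary granules was found in the Achilles tendon enthesis, the site where the tendon joins the heel bone. These cells were the barcodes with at least 300 detected genes, at most 20% mitochondrial UMIs (unique molecular identifiers, 1 per captured RNA molecule), at least 0.1% of UMIs from Mpo, Elane and Prtn3 together, at least 1 UMI of the leukocyte gene Ptprc, and less than 0.1% of UMIs from the keratin genes Krt5 and Krt14. The rule found 118 cells of the 25430 kept, 55 of 10947 in the non-tail suspension library and 63 of 14483 in the tail suspension library. The values of those 6 genes chose the cells, so their levels are given here as a description. The study placed SKG mice, a strain with a mutation in Zap70 that makes it prone to arthritis, in hind limb loading and unloading models and sequenced single cells of the enthesis on a droplet platform. Both libraries come from SKG mice and from the same tissue. The sources used here do not give the age and sex of the mice, the time in suspension or the number of animals behind a library. With 1 library per condition there is no test between conditions, and every interval below covers counting error only. Differences in the number of cells of a kind in the dissected tissue and in how many survived digestion cannot be told apart.

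In bone marrow, granulocyte-monocyte progenitors divide and fill their primary (azurophil) granules with myeloperoxidase (Mpo), neutrophil elastase (Elane), proteinase 3 (Prtn3) and cathepsin G (Ctsg). Cells that go on to become neutrophils then shut these genes down and turn on secondary granule genes such as Camp, Ltf and Ngp under Cebpe, while cells that go on to become monocytes turn on Irf8, Csf1r and Ly6c2. Primary granule RNA is therefore a mark of early, dividing myeloid cells, and mature blood neutrophils hold the proteins but little of the RNA.

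The 4 genes that name these cells lie on 3 chromosomes of GRCm38: Prtn3 and Elane side by side on chromosome 10 (79874476 to 79883174 and 79886247 to 79888215), Mpo on chromosome 11 (87793581 to 87804413) and Ctsg on chromosome 14 (56099881 to 56102574, minus strand). Their upstream sequences are shown because the first 3 share 1 purine-rich motif of the kind bound by PU.1 and other ETS factors, GAGGAAGT, printed in capitals. Each is the stretch of the RefSeq promoter window (GRCm38.p6) that precedes the first annotated exon in it, 5′ to 3′ on the gene's strand, at chr11:87793534-87793580 (plus) for Mpo, chr10:79886062-79886246 (plus) for Elane, chr10:79879417-79879613 (plus) for Prtn3 and chr14:56102575-56102824 (minus) for Ctsg. The Prtn3 stretch is intronic in a longer annotated transcript of the gene, and no annotated transcript covers the other 3.
Mpo: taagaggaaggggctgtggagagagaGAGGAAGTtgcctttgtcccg
Elane: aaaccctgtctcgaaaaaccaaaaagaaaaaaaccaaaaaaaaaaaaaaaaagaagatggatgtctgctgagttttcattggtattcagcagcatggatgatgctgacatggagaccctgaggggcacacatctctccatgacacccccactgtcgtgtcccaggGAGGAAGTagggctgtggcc
Prtn3: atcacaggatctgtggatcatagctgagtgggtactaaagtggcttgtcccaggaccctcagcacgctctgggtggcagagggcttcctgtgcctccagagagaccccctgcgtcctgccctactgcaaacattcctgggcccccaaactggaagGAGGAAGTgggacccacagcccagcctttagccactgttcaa
Ctsg: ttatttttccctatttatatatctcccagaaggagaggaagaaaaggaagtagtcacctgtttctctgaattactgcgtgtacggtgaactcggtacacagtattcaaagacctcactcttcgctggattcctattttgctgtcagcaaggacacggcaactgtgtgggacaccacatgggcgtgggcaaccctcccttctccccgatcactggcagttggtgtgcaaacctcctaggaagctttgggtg
The motif begins at position -224 from the RefSeq start in Mpo, -85 in Elane and -95 in Prtn3. Searched on both strands of the whole windows of 300 bases, it was found for 4 of the 8 primary granule genes with a window (Mpo, Elane, Prtn3 and Ctsc), 1 of 11 secondary granule genes (Ltb4r1) and 3 of 12 monocyte genes (Ly6c2, F13a1 and Ctss), against 3.69% of all 27025 genes. The Myb motif AACGG was found in Elane (position -50) and Prtn3 (position -55) among these 4, and in 19.6% of all genes. The RUNX motif TGTGGT was found in Ctsg alone of the 4 and in 18.9% of all genes. The C/EBP motif TTGCNNAA was found in none of the 4, in 1 of 8 primary and 4 of 11 secondary granule genes (Ltf, Ngp, Lcn2 and Anxa1), and in 12.2% of all genes. No match in the 4 windows overlapped another. The first motif was picked after the windows had been read, and a match describes letters in a window, not a bound site.

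The cells made up 0.502% of the kept cells without suspension (exact binomial 95% interval 0.379 to 0.653) and 0.435% with suspension (0.334 to 0.556), so the intervals overlapped. As a share of the cells with a Ptprc UMI they were 0.688% (0.519 to 0.895) and 0.949% (0.730 to 1.21), again overlapping. They were deeply sequenced cells, with a median of 25086 UMIs (792 to 78735) and 4497 genes in the library without suspension and 17029 UMIs (684 to 43456) and 3254 genes in the suspended one. The kept cells as a whole had medians of 4758 and 8508 UMIs. Each member held a median of 61 and 42 UMIs of Mpo, Elane and Prtn3 together, and 48 of 55 and 55 of 63 cells held at least 10. At the other end, 5 cells of each library met the rule with 1 or 2 such UMIs. Of the barcode sequences, 47 were present in both libraries and none of those was a member.

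The rule's threshold cuts through a continuum. Just inside it, at 0.1 to 0.15% of UMIs, lay 11 and 13 cells, and just outside, at 0.05 to 0.1%, lay 113 and 47, of which 39 and 18 had a single UMI of the 3 genes. Dropping the Ptprc requirement would have added 11 and 37 cells, with medians of 1307 and 818 UMIs, and dropping the keratin limit would have added none. The 3 genes also had UMIs in gates of cell types that should lack them, and the source of those UMIs was not tested. In gates of fibroblasts, 20.5% and 9.19% of cells had a UMI, at 9.79 and 7.26 CPM (a gene's count scaled to the cells' total UMIs, where 0.1% of UMIs is 1000 CPM), and in gates of T cells 12.2% and 8.004% had one, at 19.2 and 49.3 CPM. The level was thus higher in the T cell gate with suspension than in the other 3 gates, and the members stood at 10114 and 4799 CPM. In those gates 1 of 1658 and 9 of 4027 fibroblasts, and 1 of 591 and 4 of 962 cells of the T cell gates, reached 0.1% of UMIs. The fibroblast gates required no Ptprc UMI and so hold no member, but members were not left out of the T cell gates. The T cell values can therefore include member cells. With suspension, 77 cells of that gate held 400 UMIs of the 3 genes. S100a8 and S100a9, the calprotectin genes that dominate neutrophil RNA, reached 6184 and 7786 CPM together even in the T cell gates, against 39094 and 127184 CPM in the members.

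Markers of other cells were present in the members to different degrees. Krt5, Krt14 and Krt1 were at 0 in both libraries, as were the B cell genes Ms4a1 and Pax5, and the summed CPM of the 10 T cell genes was 18.7 and 91.6. Of 10 mast cell and basophil genes, 4 and 9 were above 0, at a summed 72.0 and 71.3 CPM, and no member reached 1% of UMIs. The 10 fibroblast and tendon genes were all present, at a summed 1085 and 2927 CPM, with at least 1% of UMIs in 1 and 6 cells. The 10 macrophage genes summed to 868 and 245 CPM, and passed 1% of UMIs in 2 cells of each library. In all, 2 and 6 cells carried at least 1% of the fibroblast or macrophage list (called other-marker cells below), and results that rest on them are given with and without them. The 10 mature neutrophil genes, all present, summed to 1616 and 1572 CPM and passed 1% of UMIs in 5 and 3 cells. Without those 5 and 3 cells the medians of the interferon-inducible, antigen presentation and secondary granule lists described below were -2.34, -1.81 and 0.89. The doublet caller Scrublet marked none of the members without suspension, where its automatic threshold marked no cell at all and so did not work, and 2 with suspension.

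Checked against its markers, the set fits the name of granulocyte progenitors only in part. Mpo, Elane and Prtn3 were all present in 44 of 55 and 41 of 63 cells, and Ctsg, which the rule did not use, in 37 and 37. Ms4a3, a membrane protein made in granulocyte-monocyte progenitors, was present in 35 and 41 cells. The stem and progenitor genes Kit and Cd34 were rare, with a UMI in 3 and 5 cells without suspension and in 12 and 12 with it. Most members carried either secondary granule RNA or monocyte RNA, and the granule range below reached at most 0.438% and 0.255% of UMIs from the monocyte genes (the plot of granule and monocyte genes in each cell). They are therefore called here by their genes, Prtn3, Mpo and Elane cells.

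**Figure D1:**
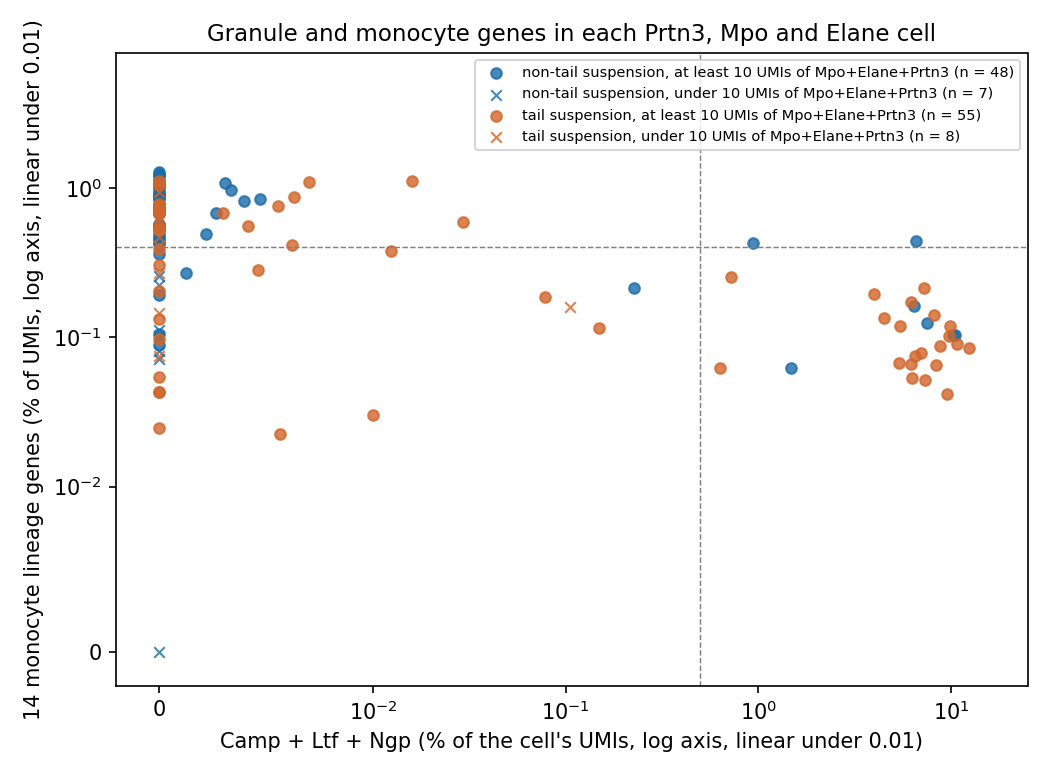
Each point is 1 cell, with the share of its UMIs from the secondary granule genes Camp, Ltf and Ngp on the horizontal axis and from the 14 monocyte lineage genes on the vertical axis, both on log scales that are linear under 0.01%; crosses are cells with under 10 UMIs of Mpo, Elane and Prtn3, and dashed lines mark the cuts at 0.5% and 0.4%. The cells right of the vertical line (7 without and 21 with suspension) sit apart from the rest, while those above and below the horizontal line run into each other.

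To describe this spread, the cells with at least 10 UMIs of the 3 genes were split at 2 cuts set after the values had been seen. A granule range held the cells with at least 0.5% of UMIs from Camp, Ltf and Ngp. A monocyte-gene range held the others with at least 0.4% of UMIs from 14 monocyte lineage genes, and a remaining range held what was left. The granule range had 7 of 55 cells without suspension (12.7%, 5.27 to 24.5) and 21 of 63 with it (33.3%, 21.95 to 46.3). The monocyte-gene range had 35 of 55 (63.6%, 49.6 to 76.2) and 19 of 63 (30.2%, 19.2 to 43.0). The remaining range had 6 (10.9%, 4.11 to 22.2) and 15 (23.8%, 13.98 to 36.2), and 7 and 8 cells had too few UMIs to be placed. Few cells lay near the granule cut, 1 and 1 just under it (0.1 to 0.5%) and 1 and 2 just over it (0.5 to 1%). The monocyte cut ran through more of them, with 1 and 3 cells at 0.3 to 0.4% and 6 and 1 at 0.4 to 0.5%. The shares and intervals of the monocyte-gene and remaining ranges therefore depend on where this cut was placed. Such shares are shares of sequenced cells of 1 library each, and the spread between animals is unknown.

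By its cuts, the granule range holds cells with both primary and secondary granule RNA, so the levels of the genes that made the cuts are a description. Prtn3 stood at 7510 CPM without suspension and 3639 with it. Camp, the cathelicidin precursor, stood at 32511 and 40141 CPM, and Ngp, neutrophilic granule protein, at 30877 and 28279 CPM. Ltf, lactoferrin, was lower and patchier, at 2979 and 2052 CPM, with UMIs in 5 of 7 and 20 of 21 cells. Cebpe, the transcription factor of the secondary granule stage, had UMIs in 7 of 7 and 21 of 21 of these cells, at 463 and 352 CPM, and in 13 of 35 and 4 of 19 cells of the monocyte-gene range, at 27.1 and 17.9 CPM. Fcnb, ficolin B, stood at 1762 and 1409 CPM, and Serpinb1a, an inhibitor of elastase, proteinase 3 and cathepsin G, at 1757 and 1009 CPM. Irf8, which favours the monocyte fate, had 3 UMIs in the 7 cells and none in the 21 (13.6 and 0 CPM). It stood at 209 and 279 CPM in the monocyte-gene range, but it is 1 of the 14 genes that cut that range. Genes of late neutrophils were uneven. The gelatinase gene Mmp9 stood at 4.54 and 30.3 CPM and Il1b had UMIs in 4 of 7 cells and 1 of 21, while Itgam, the integrin CD11b, had UMIs in 7 of 7 and 19 of 21 (154 and 126 CPM) and Retnlg in 2 of 7 and 11 of 21 (40.9 and 245 CPM). Among all suspended members, 1 cell held 75% of the Mmp9 UMIs and 1 cell 57.0% of those of Retnlg.

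In the monocyte-gene range Prtn3 led the rule genes. It had the most UMIs of the 3 rule genes in 33 of 35 and 18 of 19 of these cells (counts not corrected for length or capture), at a median per cell of 2170 and 1351 CPM. The median per cell of Mpo was 142 and 430 CPM, against 612 and 142 CPM in the granule range, and that of Elane 328 and 209 CPM. Lyz2, the lysozyme gene, which monocytes also express and which stands in the primary granule list, was at 9515 and 6421 CPM, against 10861 and 3574 CPM in the granule range. Ly6c2, F13a1, Ccr2 and Csf1r are among the 14 genes that cut this range, so their levels describe the cut. Ly6c2, the surface marker of inflammatory monocytes, reached 3024 and 2023 CPM, F13a1, coagulation factor XIII, 735 and 667 CPM, and the chemokine receptor gene Ccr2, 677 and 650 CPM. Csf1r, the receptor for the monocyte growth factor, was low at 76.9 and 99.7 CPM, with UMIs in 30 of 35 and 14 of 19 cells. Camp, whose share the granule cut limits here, was near 0, at 4.33 and 12.8 CPM. Ctsc, the protease that activates the granule serine proteases, stood at 1382 and 721 CPM, against 132 and 9.32 CPM in the granule range.

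The remaining range held the highest levels of Mpo and Ctsg in both libraries, while with suspension Elane and Prtn3 were higher in the granule range. Mpo stood at 7377 and 2935 CPM, Elane at 7765 and 857 CPM, Prtn3 at 11801 and 2449 CPM and Ctsg at 5584 and 1327 CPM. The 6 cells without suspension all had Ctsg, between 2664 and 11234 CPM, while 13 of the 15 with suspension had it, up to 4117 CPM. Mpo was the highest of the 3 rule genes in 11 of the 15 suspended cells and in 2 of the 6 others. Kit or Cd34 was seen in 13 of 15 and 4 of 6, with Kit at 114 and Cd34 at 93.9 CPM with suspension and 12.9 and 51.7 CPM without. This range held 2 of the other-marker cells with suspension and none without, and the matrix genes Dcn and Col1a1 stood at 2988 and 1127 CPM with suspension against 25.9 and 25.9 CPM without. Leaving those 2 cells out, Kit or Cd34 was seen in 11 of 13 suspended cells, with Kit at 149.7 and Cd34 at 80.2 CPM, and Dcn at 117.7 CPM. Myb, a transcription factor of dividing progenitors, stood at 237 CPM with suspension and 116 without. Meis1, a stem and early progenitor factor, had 10 UMIs in 5 of the suspended cells and none in the 6 others. Calr (calreticulin, a folding chaperone) at 1751 and 1269 CPM and Npm1 (nucleophosmin, a ribosome assembly factor) at 2479 and 1857 CPM were higher here than in the other ranges, against 332 and 196 CPM for Calr and 381 and 282 CPM for Npm1 in the granule range.

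**Figure D2:**
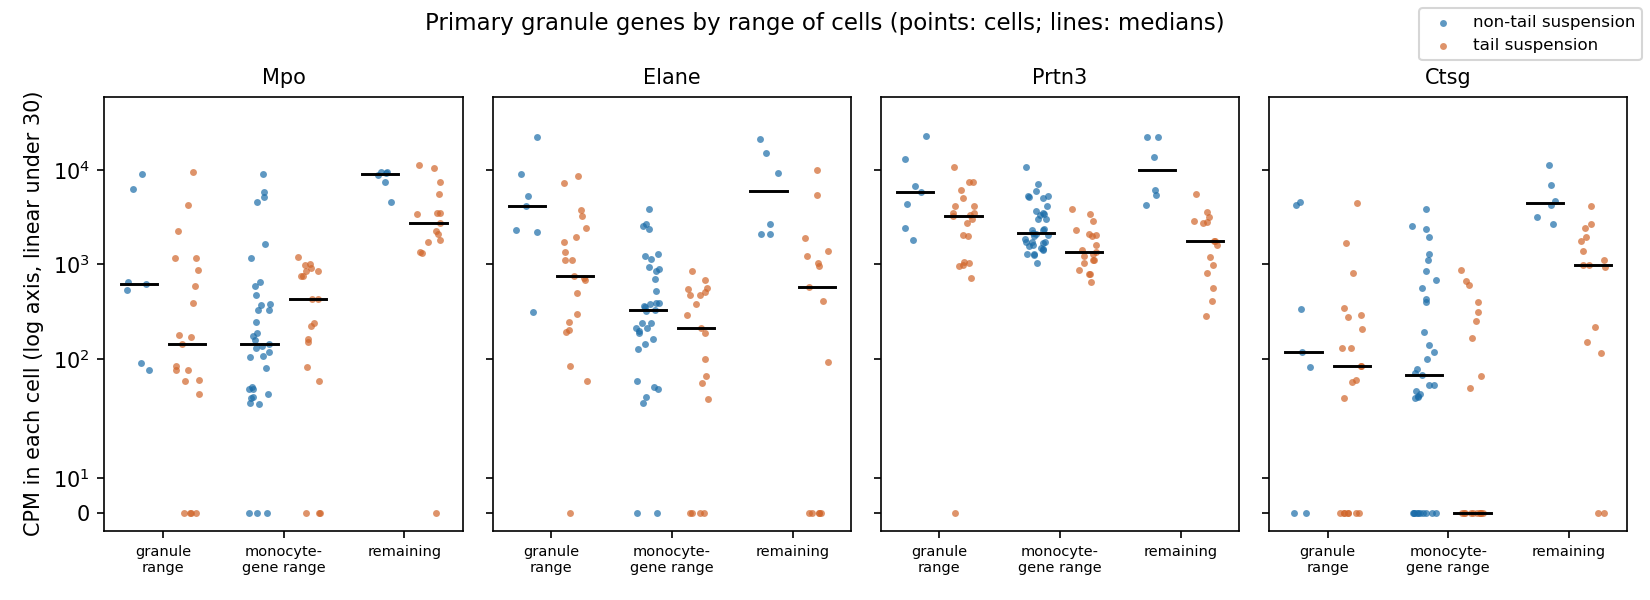
Each point is the CPM of Mpo, Elane, Prtn3 or Ctsg in 1 cell, on a log axis that is linear under 30 CPM, by range of cells and library, and the lines are medians over cells. The remaining range has the highest median of Mpo and Ctsg in both libraries, and the median of Ctsg is 0 in the 19 suspended cells of the monocyte-gene range.

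What set these cells apart from their neighbours, beyond the genes of the rule, was Ctsg, Ms4a3 and replication. The neighbours were an immature neutrophil gate (208 and 616 cells), a mature neutrophil gate (4910 and 781) and a monocyte gate (1041 and 2172), and genes were ranked by the mean CPM of both libraries over that of the highest gate, with 10 CPM added to each. Ctsg led at 73.6-fold, followed by Ms4a3 at 9.08-fold. The next places were taken by the replication helicase genes Mcm6 (5.37-fold), Mcm3 (5.32-fold), Mcm7 (4.82-fold) and Mcm5 (4.46-fold), with Nkg7 (4.79-fold), the receptor subunit Ramp1 (4.73-fold) and the histone gene Hist1h2ae (4.70-fold) between them. The list of 15 ended with Dut, Rrm2, Gmnn, Rrm1, Stmn1 and Hist1h1b, at 3.79- to 4.34-fold. Of these, Dut, Rrm1 and Rrm2 supply nucleotides for DNA, and Gmnn (geminin) limits replication to once per cycle. Members were left out of the gates, so the folds are not independent of the rule. These ranks describe cells chosen by their own RNA and carry no test. The cells just outside the rule's threshold were not ranked as a group. Their Mki67 stood at 224 and 121 CPM, against 176 and 425 CPM just inside it. Mcm5 stood at 56.8 and 31.0 CPM outside and 120 and 51.0 CPM inside, and Ms4a3 at 66.3 and 59.4 against 9.25 and 102 CPM.

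At equal depth, the share of cells with cell cycle RNA was several times that of the gates in each library. Cells were thinned to 2000 UMIs each, which left out 6 cells of each library, and called positive with at least 2 UMIs of a list. The S phase list was positive in 40 of 49 cells without suspension (81.6%, 68.0 to 91.2) and 36 of 57 with it (63.2%, 49.3 to 75.6), and the G2 and M phase list in 69.4% (54.6 to 81.7) and 66.7% (52.9 to 78.6). The intervals of the libraries overlapped for both lists. Either list was positive in 89.8% and 87.7% of the members, against 17.96% and 14.6% of the immature neutrophil gate, 5.01% and 7.03% of the mature neutrophil gate and 14.7% and 19.3% of the monocyte gate. Without thinning, the S phase list was positive in 90.9% and 88.9% of members and the G2 and M phase list in 85.5% and 79.4%. The unthinned monocyte gate was close to them for the S phase list, at 81.5% and 74.1%, and lower for the G2 and M phase list, at 28.2% and 20.9%. Mki67, a marker of cycling cells, stood at 263 and 275 CPM in the granule range and 310 and 315 CPM in the monocyte-gene range, and at 121 and 274 CPM in the remaining range.

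**Figure D3:**
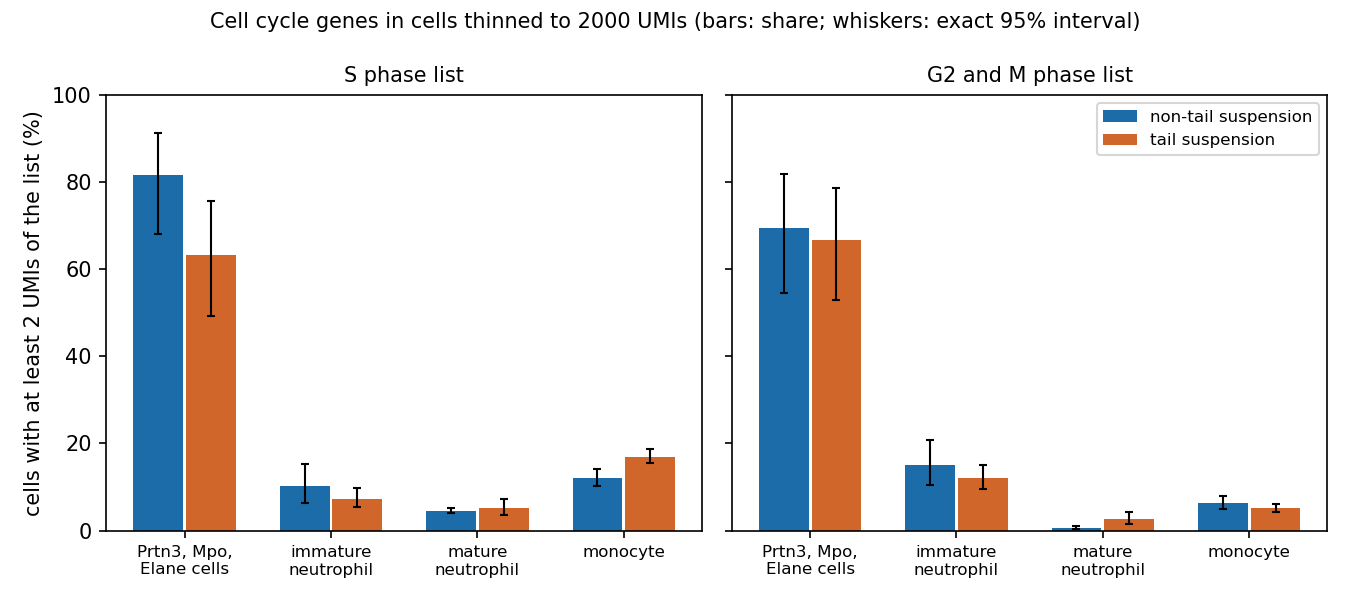
Bars give the percentage of cells, thinned to 2000 UMIs, with at least 2 UMIs of the S phase list (left) or the G2 and M phase list (right), with exact binomial 95% intervals, for the Prtn3, Mpo and Elane cells and 3 gates in both libraries. The members stand between 63.2% and 81.6%, and the gates at or under 17.0%.

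Pooled over all members, the libraries differed mainly in primary and secondary granule, monocyte, interferon-inducible and antigen presentation genes. Among 8008 genes with at least 20 UMIs, 475 (5.93%) were at least 2-fold higher and 681 (8.5%) at least 2-fold lower with suspension, with a median log2 ratio of -0.12. Scaled by the median of ratios, 616 were higher and 520 lower, and with S100a8, S100a9 and the granule genes left out of the totals 684 and 472, so the split between directions depends on the scaling. Without the members in the top share of Scrublet scores (2 and 21 cells), 305 were higher and 1160 lower. Of 12 secondary granule genes, 6 were at least 2-fold higher and 1 lower (median 0.91). Camp went from 5158 to 15952 CPM (log2 1.63, interval 1.59 to 1.67), and Chil3 from 459 to 197 CPM (log2 -1.22). Of 13 monocyte lineage genes, none was at least 2-fold higher and 7 were lower (median -1.02), among them Ly6c2 (2423 to 1198 CPM) and Fcgr1 (94.3 to 20.4 CPM). These 2 lists hold the genes that cut the ranges, and the ranges held different shares of the 2 libraries. Inside the granule range, where 6.04% of 3014 genes were at least 2-fold higher and 13.5% lower, the secondary granule list had 0 of 12 higher and 1 lower (median -0.23). Inside the monocyte-gene range, where 5.67% of 6440 genes were higher and 8.29% lower, the monocyte list had 1 of 13 higher and 1 lower (median -0.36). S100a8 and S100a9 together had a median per cell in the granule range of 138459 CPM without suspension (76072 to 233464) and 296690 CPM with it (14258 to 449966), so the cells overlapped.

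The pooled counts of the primary granule list, part of which chose the cells, were lower with suspension as a description. Over all members 6 of 12 genes were at least 2-fold lower and none higher (median -1.03). Mpo stood at 2185 and 1158 CPM, Elane at 2694 and 981 CPM, Prtn3 at 5235 and 2660 CPM and Ctsg at 1548 and 524 CPM. Serpinb1a went the other way in the pool, at 417 and 509 CPM. Per cell, the 3 rule genes together held a median of 0.291% of UMIs without suspension and 0.282% with it. Their highest shares were 5.44% and 2.57%, and 4 cells without suspension and 0 with it held 3% or more. The pooled levels thus rested partly on a few cells with high shares. Pooled within the ranges, the list medians were -1.17 over 11 genes in the granule range and -0.83 over 12 in the monocyte-gene range. For Mpo, the median per cell went the other way in the monocyte-gene range, at 142 CPM without suspension and 430 CPM with it. Those of Elane (328 and 209 CPM) and Prtn3 (2170 and 1351 CPM) were lower with suspension there. In the granule range the medians per cell of Mpo, Elane, Prtn3 and Ctsg were lower with suspension. Among early progenitor genes 7 of 14 could be measured, and 3 of them were at least 2-fold higher with suspension (Kit, Cd34 and Myb). Kit had 4 UMIs in 3 cells and 32 UMIs in 12 cells (log2 3.36, interval 1.87 to 5.32). Without the cells carrying fibroblast or macrophage markers Kit alone of the 7 stayed past 2-fold (log2 3.39), with Cd34 at 0.56 and Myb at 0.97. Among the committed granulocyte-monocyte progenitor genes, 1 of 12 was higher and 3 were lower (median -0.46), with Ms4a3 at 598 and 289 CPM.

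**Figure D4:**
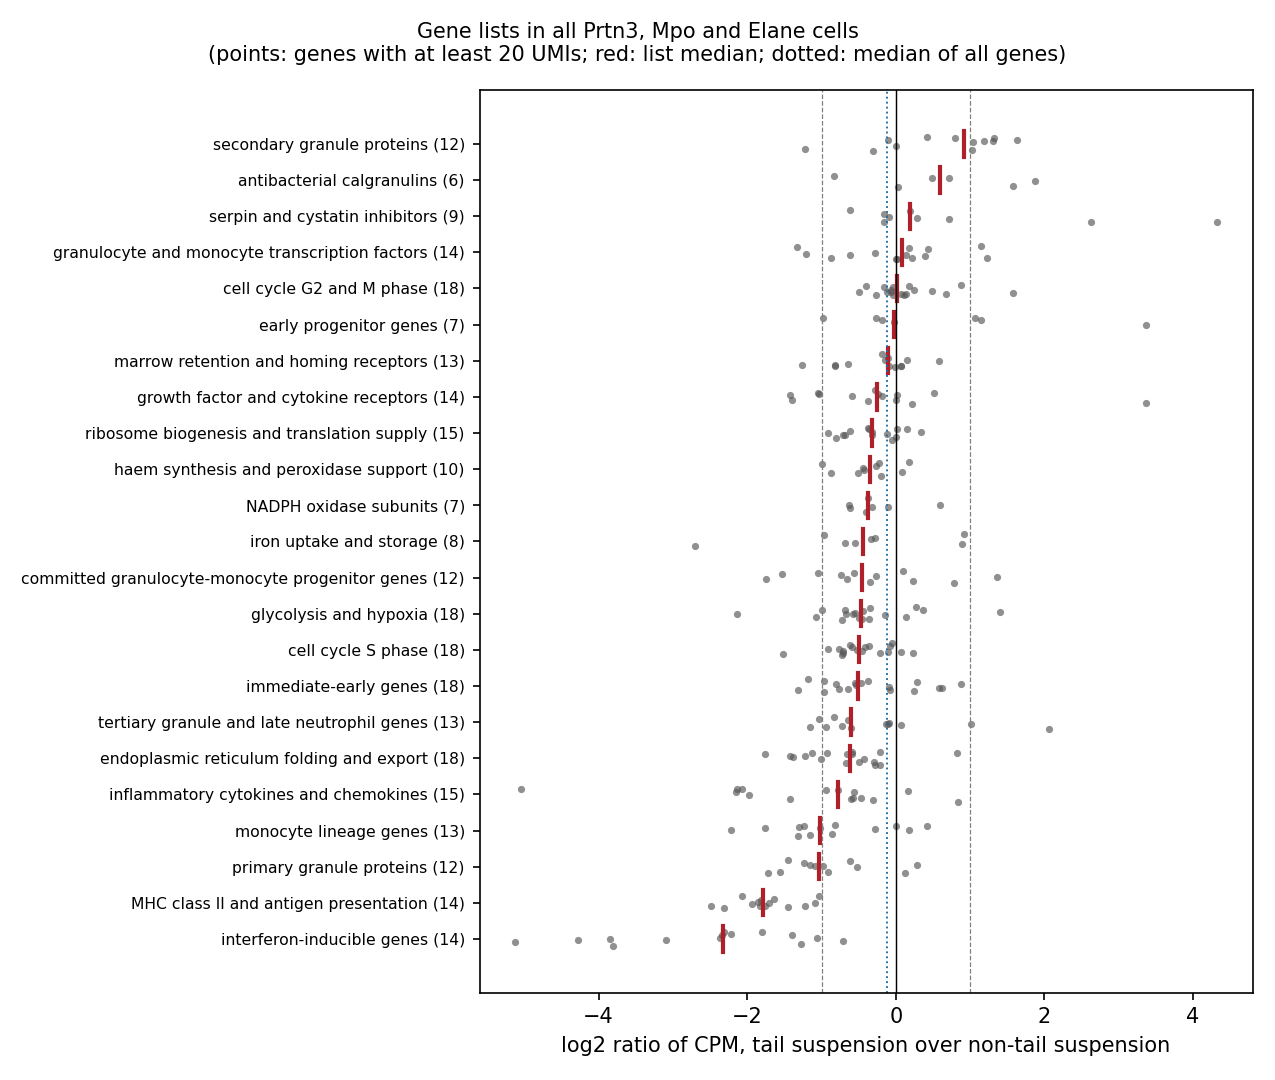
Points are genes with at least 20 UMIs in the members, placed by the log2 ratio of CPM with suspension over without, for 23 lists; red bars are list medians, the dotted line is the median of all genes (-0.12) and dashed lines mark 2-fold. The interferon-inducible and antigen presentation lists lie lowest (medians -2.33 and -1.79) and the secondary granule list highest (0.91).

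Interferon-inducible genes were lower with suspension in the pool of all members. Of 14 measured, 13 were at least 2-fold lower and all 14 were below 0 (median -2.33). Gbp2, a guanylate-binding GTPase, had UMIs in 37 of 55 cells without suspension and 4 of 63 with it, at 77.8 and 5.55 CPM (log2 -3.81, interval -5.29 to -2.64). Bst2, tetherin, had UMIs in 38 and 14 cells, at 143 and 27.8 CPM. Other genes of the list rested on 1 cell. In the library without suspension a single cell held 66.9% of the UMIs of Isg15, 96.7% of those of Oasl1 and 76.0% of those of Oasl2. Summed over the 20 genes, the median per cell was 3220 CPM (321 to 9617) without suspension and 565 CPM (0 to 10108) with it, so the ranges overlapped. Without the 2 and 6 cells carrying fibroblast or macrophage markers, the list still had 13 of 14 genes at least 2-fold lower (median -2.34). In cells thinned to 1000 UMIs the median was -0.56 and at 2000 UMIs -1.26. The median was -1.96 in the monocyte-gene range and -2.21 over the 3 genes that could be measured in the granule range. In the remaining range the 20 genes together were nearly equal when pooled, at 1194 CPM without suspension and 1147 CPM with it. Their median per cell there was 989 CPM (378 to 1829) and 437 CPM (0 to 3610).

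Antigen presentation genes were all at least 2-fold lower in the pool (14 of 14, median -1.79), but they divided into 2 groups. MHC class I and the proteins that supply its peptides were lower in the bulk of the cells. H2-D1 stood at 3742 and 1055 CPM (log2 -1.83, interval -1.92 to -1.73), the immunoproteasome subunit Psmb8 at 874 and 249 CPM (log2 -1.81), and B2m, the class I light chain, at 2199 and 1039 CPM (log2 -1.08). Summed over 7 such genes, the median per cell was 8262 CPM (4346 to 32167) without suspension and 3061 CPM (407 to 16846) with it. The interquartile ranges did not overlap, at 7143 to 10231 CPM and 1797 to 4637 CPM. In the granule range, the lower and upper ends were 5560 and 12001 CPM without suspension and 407 and 6087 CPM with it, and in the monocyte-gene range 4916 and 12712 against 1997 and 8829 CPM. Summed over 6 MHC class II genes, UMIs were present in 51 of 55 and 41 of 63 cells, at a median per cell of 263 and 65.4 CPM. For 4 of them, large parts of the UMIs lay in single cells. One cell held 56.1% of the Cd74 UMIs (the class II invariant chain) without suspension and 1 cell 79.0% with it, and the pooled 287 and 74.96 CPM became 59.1 and 73.6 CPM once the cells with fibroblast or macrophage markers were left out. H2-Aa, H2-Ab1 and H2-Eb1 moved likewise, to log2 ratios of 0.58, 0.35 and -0.14 from -1.76, -1.71 and -2.32. For each of these 4 genes the suspended cell with the most UMIs was not among those left out, and for Cd74 all but 11 of the 75 UMIs that were left came from it. With the top cell of each gene and library removed as well, Cd74 stood at 52.3 and 10.96 CPM (log2 -2.26), H2-Aa at -2.05, H2-Ab1 at -1.78 and H2-Eb1 at -1.32. The ratios of these 4 genes therefore turned on which single cells were kept. With only the top cell of each gene and library removed, Cd74 stood at log2 -3.02, H2-Aa at -2.79, H2-Ab1 at -2.39 and H2-Eb1 at -1.87. H2-DMa (UMIs in 39 of 55 and 28 of 63 cells) and H2-DMb1 (18 and 3 cells) were lower in each of these settings. They stood at log2 -1.31 and -1.81 without the other-marker cells. Without the other-marker cells alone, 10 of the 14 genes of the list remained at least 2-fold lower (median -1.25, against -1.79 with them).

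The neighbouring gates showed the same direction for both lists, so it was not found only in these cells. The interferon list had medians of -1.79 in the immature neutrophil gate, -2.61 in the mature neutrophil gate and -1.91 in the monocyte gate, and the antigen presentation list -1.80, -1.52 and -1.15. Of the interferon genes, 14 of 16, 17 of 19 and 15 of 19 were at least 2-fold lower in these gates, and of the antigen presentation genes 15, 10 and 11 of 15, with none at least 2-fold higher. Over all genes tested, 4.64% were at least 2-fold lower and 12.9% higher in the immature neutrophil gate, 8.32% and 29.6% in the mature neutrophil gate and 4.1% and 11.4% in the monocyte gate. A single library per condition underlies all of these values, so suspension and any other difference between the libraries cannot be told apart.

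**Figure D5:**
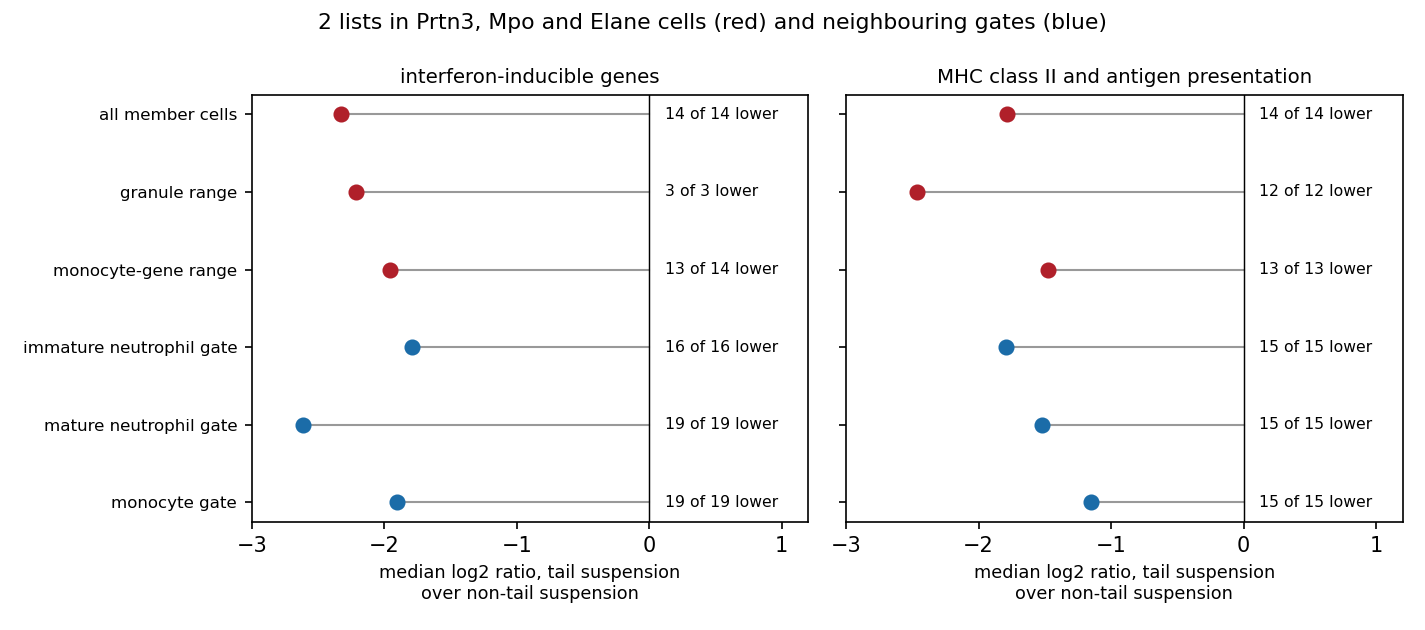
Points are the median log2 ratio of CPM, with suspension over without, for the interferon-inducible list (left) and the antigen presentation list (right) in all Prtn3, Mpo and Elane cells, 2 of their ranges (red) and 3 gates (blue), with the number of measured genes below 0. All medians lie between -1.15 and -2.61. In the right panel, large parts of the Cd74, H2-Aa, H2-Ab1 and H2-Eb1 UMIs of the members lie in single cells.

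Of the genes with the largest ratios, the higher ones were largely held by a few cells or shared with the rest of the library. Ctla2a, a cysteine protease inhibitor, had 5 UMIs without suspension and 508 with it (log2 7.03, interval 5.80 to 8.66), and 1 cell held 64.6% of the latter. Another group was of stefin-type protease inhibitors of neutrophils. Stfa3 (log2 4.33), Cstdc4 (2.78) and Cstdc5 (2.66) were nearly confined to the granule range with suspension, where Cstdc5 stood at 6418 CPM against 2143 CPM without it. Among all members without suspension, 1 cell held 72.8% of the Cstdc5 UMIs and 1 cell all 8 of Stfa3. With suspension the largest single-cell shares were 36.0% and 45.6%. In the monocyte-gene range Cstdc4 and Cstdc5 were higher without suspension, with 85 and 75 UMIs against none, while Stfa3 had none without it and 4 UMIs with it. Spata7 (2.88) and the small nucleolar RNA host gene Snhg9 (2.39) were also in the set. The lubricin gene Prg4 (4.195) was present in 63 of 63 suspended cells at 633 CPM and in 28 of 55 others at 34.6 CPM. The T cell gates, which should lack Prg4, showed 8980 CPM with suspension and 985 CPM without it, and the part of free RNA in the difference was not tested. Angptl7 (4.70) and the matrix gene Dcn (3.57) had 76.9% and 52.6% of their suspended UMIs in 1 cell and were at 1.13 and 1.33 without the cells carrying fibroblast or macrophage markers. The metallothionein gene Mt2 stood at 3.22, and at 1.76 without them.

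Of the 10 lower genes, Bst2 was on the interferon-inducible list and H2-Eb1 on the antigen presentation list. AW112010, an RNA induced in activated leukocytes, stood at 323 and 31.5 CPM (log2 -3.36, interval -3.91 to -2.86) with UMIs in 44 of 55 and 23 of 63 cells. Zbp1, a sensor of nucleic acids, stood at -2.80, Bst2 at -2.37, the class Ib genes H2-T22 and H2-T23 at -2.36 and -2.20, and H2-Eb1 at -2.32 (-0.14 without the other-marker cells). The others were Ccrl2, a chemerin-binding receptor (-2.52), Ass1, an enzyme of arginine synthesis (-2.28), Ms4a4c (-2.24) and the cytokine Osm (-2.15). Ass1 stood at 197 and 63.9 CPM in the monocyte-gene range and 151 and 40.8 CPM in the remaining range, with 1 UMI and none in the granule range.

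Other lists moved less. Of 15 inflammatory cytokine and chemokine genes, 6 were at least 2-fold lower and none higher (median -0.78). Cxcl2, which attracts neutrophils, had UMIs in 54 of 55 and 38 of 63 cells, at 1773 and 402.5 CPM, and Il1b in 41 and 19, at 618 and 324 CPM. Mature neutrophils, which are rich in Il1b, made up 4910 and 781 cells of the gates, and the T cell gates carried 572 and 256 CPM of Il1b, and the part of free RNA in its difference was not tested. Of 18 genes of endoplasmic reticulum folding and export, 6 were lower and none higher (median -0.62), with Pdia6 at 475 and 182 CPM and Sdf2l1 at 235 and 69.4 CPM. Among 14 growth factor receptor genes 4 were lower and 1 higher (median -0.26), with the shared subunit Csf2rb at 207 and 207 CPM and Csf2ra, the GM-CSF receptor, at 250.5 and 93.5 CPM. Over 14 lineage transcription factors, 2 were higher (Myb and Ets1) and 2 lower (Cebpb and Gfi1), with a median of 0.08. Cebpe stood at 116 and 153 CPM, Irf8 at 150.5 and 150.8 CPM and Spi1, which encodes PU.1, at 354 and 231 CPM. The S phase list had 1 of 18 genes lower (median -0.49) and the G2 and M phase list 1 of 18 higher (median 0.02). NADPH oxidase subunits (7 genes, median -0.38), haem synthesis (10, -0.35) and ribosome supply (15, -0.32) had no gene past 2-fold. Homing receptors had 1 of 13 lower and none higher (median -0.10), with Cxcr4, which holds myeloid cells in the marrow, at 41.8 and 46.3 CPM.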

How the data were processed

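Single cells of the Achilles tendon enthesis of SKG mice were measured in 2 libraries, 1 per condition. Each deposited matrix gives raw UMI counts of genes in barcodes. Cell Ranger 5.0.1 and GRCm38 are listed, without their roles, in the processing notes of the submitters. Whether depth was equalised between libraries before deposit is not given in the sources used here. The counts were used as deposited.

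Groups came from the treatment labels. The members, gene lists and cuts were chosen with earlier results of these data known. Counts were summed over member cells and divided by their total UMIs (CPM). Genes with at least 20 UMIs over both libraries were compared, and a ratio of 2-fold or more was counted; a count of 0 was set to 3 UMIs. Shares have exact (Clopper-Pearson) 95% intervals and ratios exact conditional binomial ones. No paired or replicate fit was possible with 1 library per condition. Genes named for their ratio had at least 50 UMIs, and 100 CPM and 10% of cells in the higher library, and had the same sign when scaled by the median of ratios or thinned to 1000 UMIs per cell; the 10 largest each way are given. The leading genes were ranked with a pseudocount of 10 CPM. Gates of neighbouring cells followed fixed marker rules. Doublets were sought with Scrublet through scanpy 1.11.5. Calculations used Python 3.11.15, numpy 2.4.6, scipy 1.17.1 and pandas 2.3.3, and the counting and interval code was tested on simulated data. Alternatives are given at the end.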

Additional observations from a re-analysis of the deposited data

How the results depend on the processing

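No paired analysis was possible because each condition has 1 library. The share of members, 0.502% and 0.435%, moved to 0.247% and 0.20% with a threshold of 0.3% of UMIs, to 0.679% without suspension with at least 1000 genes, to 0.690% with suspension without the Ptprc requirement, and to 0.331% with suspension when the cells with the highest Scrublet scores were left out, an alternative chosen after seeing the data (21 of 63 suspended members had such scores, and 2 of 55 others). The 475 higher and 681 lower genes became 305 and 1160 without those cells, 182 and 407 in the granule range, 73 and 143 in cells thinned to 1000 UMIs, 104 and 222 at 2000 UMIs and 199 and 408 with at least 50 UMIs. The ranges, the thinned cells and the minimum of 50 UMIs leave fewer genes to measure. Removing the top Scrublet scores, the ranges and removing other-marker cells were chosen after seeing the data. With a mean of CPM over cells, 882 were higher. The S phase share moved to 96.2% and 82.8% with the threshold of 0.3%, to 59.3% and 41.7% at 1000 UMIs, to 67.3% without suspension with at least 3 UMIs of the list and to 78.9% with suspension with at least 1. It was 67.6% in the monocyte-gene range without suspension and 76.2% in the granule range with it. The G2 and M share moved to 82.8% with suspension with the threshold of 0.3%, to 40.7% and 43.3% at 1000 UMIs, to 53.1% without suspension with at least 3 UMIs and to 80.7% with suspension with at least 1, and was 85.7% in the granule range without suspension.

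Over 20 alternatives the list medians kept their sign for interferon-inducible genes (-2.54 to -0.56, the latter in cells thinned to 1000 UMIs), antigen presentation (-2.47 to -1.25), primary granule (-1.18 to -0.81) and monocyte genes (-2.35 to -0.36). The secondary granule median ran from -0.25 to 1.39 and kept its sign in 18 of 20, the exceptions being the granule and monocyte-gene ranges. The medians near 0 of the early progenitor and transcription factor lists kept theirs in 11 and 12 of 20. Of the named genes, Dcn (-0.037) reversed inside the granule range. The computed signs of Angptl7 (-0.55) and Ass1 (0.62) also turned there, but only because a count of 0 was set to 3 UMIs (0 and 4 UMIs of Angptl7, 1 and 0 of Ass1), so they show no change of direction. Reversals were also seen for Cstdc4 (-3.58) and Cstdc5 (-3.40) inside the monocyte-gene range. H2-Eb1 came to -0.14 without cells carrying fibroblast or macrophage markers. The cause of these moves was not tested unless stated. Depth limits the few-UMI cells: 5 members of each library rest on 1 or 2 UMIs of the rule's genes.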
